A study of Mus musculus with 15 samples.

Results

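Myosin heavy and light chains form the motor of muscle, and 9 genes for them were examined among the 16809 genes of a Drop-seq table of E14.5 mouse hearts. They were taken by name: the heavy chains Myh6, Myh7 and Myh11 and the light chains Myl1, Myl2, Myl3, Myl4, Myl7 and Myl9, and all 9 were found. In Drop-seq each cell shares a droplet with a barcoded bead that binds its poly(A) RNA, and molecules are counted by unique molecular identifiers (UMIs). The 8 KO libraries are from whole hearts of Adamts19 homozygous knockout embryos, in which replicates 1 to 4 carry the allele labelled tm4a and replicates 5 to 8 the allele labelled tm4b. The 7 WT libraries are from Adamts19 wild-type hearts, and both groups are of the C57BL6/N background. KO replicate 1 is from litter 5, KO replicates 2 to 4 are from litter 6 and KO replicates 5 to 8 from litter 7. The WT libraries came from litters 1 to 4. No litter holds both genotypes, and all KO libraries were sequenced on 1 flow cell, which among the WT libraries only replicate 5 shares. Genotype and litter therefore cannot be told apart. The sources used here do not give the number of embryos per library or the deleted part of Adamts19, so p-values measure the spread between these libraries, which may be partly technical.

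Each myosin motor holds a pair of heavy chains, which split ATP and pull on actin, and each heavy chain binds an essential and a regulatory light chain. Working heart muscle uses different isoforms in its chambers. Myh6 encodes the alpha heavy chain, the chain of the atria and of the adult mouse ventricle, and Myh7 the beta heavy chain, the main chain of the mouse ventricle before birth. Myl7 and Myl2 encode the atrial and the ventricular regulatory light chain. Myl4 and Myl3 encode the atrial and the ventricular essential light chain, and Myl1 the essential light chain known from fast skeletal muscle. Myh11 and Myl9 encode the heavy chain and a regulatory light chain of smooth muscle.

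The genes lie on 7 chromosomes in GENCODE M21 (GRCm38). Myh6 (ENSMUSG00000040752, chr14:54941921-54966927) and Myh7 (ENSMUSG00000053093, chr14:54970684-54994626) are neighbours on the minus strand, 3756 bp apart. Their transcript ends share sequence: 21.7% of the 50-base words in the last 500 bases of Myh6 transcripts also occur in those of Myh7, and 22.2% of those of Myh7 occur in Myh6, so some reads could be split between them. Myl1 shares 22.7% with the pseudogene Mylf-ps, and the other 6 share none. Antisense genes cover the 3′ ends of Myh6 (Gm49130), Myh7 (Mhrt) and Myl2 (Ccdc63), of which only Ccdc63 is in the table. The sources used here do not say whether counting used strand. Myl7 (chr11:5896637-5898782) is the shortest locus at 2146 bp and Myh11 (chr16:14194535-14291372) the longest at 96838 bp.

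The start-site regions of an atrial and a ventricular heavy chain and of an atrial and a ventricular light chain are shown because these 4 genes have the chamber patterns described below. They run from 250 bases before to 50 bases after the start in RefSeq (GRCm38.p6), in which 8 of the 9 genes matched, all but Myh11. Capitals mark matches on either strand to TATAAA, to CATTCC (the MCAT core), to GATAAG, to the CArG box and to the MEF2 box.
Myh6, chr14:54966558-54966857, minus strand: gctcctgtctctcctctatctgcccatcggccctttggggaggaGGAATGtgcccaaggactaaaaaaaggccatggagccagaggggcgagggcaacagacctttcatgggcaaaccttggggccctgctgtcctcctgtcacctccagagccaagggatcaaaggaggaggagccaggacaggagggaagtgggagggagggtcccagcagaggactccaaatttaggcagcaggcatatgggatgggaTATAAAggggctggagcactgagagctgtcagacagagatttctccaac
Myh7, chr14:54994500-54994799, minus strand: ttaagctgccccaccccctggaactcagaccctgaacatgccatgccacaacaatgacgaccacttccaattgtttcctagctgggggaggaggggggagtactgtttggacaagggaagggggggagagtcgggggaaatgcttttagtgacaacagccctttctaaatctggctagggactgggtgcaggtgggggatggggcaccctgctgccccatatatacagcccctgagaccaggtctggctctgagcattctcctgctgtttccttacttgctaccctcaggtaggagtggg
Myl7, chr11:5898733-5899032, minus strand: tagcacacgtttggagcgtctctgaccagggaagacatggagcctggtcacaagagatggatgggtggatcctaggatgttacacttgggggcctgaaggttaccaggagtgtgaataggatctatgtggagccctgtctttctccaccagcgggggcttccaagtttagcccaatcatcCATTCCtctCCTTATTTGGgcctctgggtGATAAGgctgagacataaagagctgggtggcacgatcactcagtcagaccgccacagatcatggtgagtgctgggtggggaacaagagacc
Myl3, chr9:110763428-110763727, plus strand: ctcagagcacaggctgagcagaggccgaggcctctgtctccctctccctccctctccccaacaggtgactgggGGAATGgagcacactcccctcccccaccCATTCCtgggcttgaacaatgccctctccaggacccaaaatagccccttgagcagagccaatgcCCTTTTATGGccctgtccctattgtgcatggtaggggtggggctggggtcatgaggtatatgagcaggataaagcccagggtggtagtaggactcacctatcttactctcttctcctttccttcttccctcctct
The Myh6 region holds a TATAAA and an MCAT match (GGAATG is CATTCC on the other strand), and the Myl7 region holds a CATTCC, a CArG and a GATAAG match. The Myl3 region holds 2 MCAT matches and a CArG match, and the Myh7 region shown has 0 matches. Myh7 has another annotated start upstream of the one used, and its region is not shown. Of 32851 RefSeq promoter windows of this length, 13.6% hold TATAAA, 14.7% the MCAT core, 7.44% GATAAG, 1.63% a CArG and 0.557% a MEF2 match. A match describes letters only.

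The libraries held 5477109 to 11340443 UMIs. Of 55152 barcodes, 50771 were kept (28390 KO and 22381 WT cells), and 87 of 55053 barcode sequences occurred in more than 1 library. The kept cells formed 25 clusters, made without the 9 genes, and clusters were named from marker genes of which none is among the 9. Adamts19 was lower in the KO libraries (5.28 to 8.60 CPM, UMIs of a gene per 1000000 UMIs) than in the WT libraries (15.8 to 49.9 CPM), with a log2 fold change of KO over WT of -2.17 (SE 0.21, edgeR adjusted p = 3.84e-05). A LacZ feature had 29 to 522 UMIs in each KO library and 0 in every WT library. The classes of heart muscle were atrial cells (1584 KO, 1028 WT), compact ventricular cells (4969 KO, 3960 WT), trabecular cells (868 KO, 1055 WT) and mitotic cells (3551 KO, 2421 WT, of which 584 KO and 332 WT cells were atrial), each called cardiomyocyte-like. Compact ventricular cells joined a cluster of median 3543 UMIs and a shallow cluster of median 673. A further cluster (1219 KO, 762 WT), with Igfbp5, Vsnl1, Shox2, Rspo3 and Bmp2 among its leading genes, was kept apart from the atrial class by a rule set after the clusters were seen and is called the Vsnl1/Shox2 cluster (Shox2/Vsnl1 cluster in the plots).

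Levels below are CPM of the summed UMIs of a class in a library. They rest on 3′ tags and are compared between classes for a gene, not between genes. Since the classes are clusters of the same cells, differences between them are described without a test.

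Myh6 was highest in atrial cells in every library. It had 7711, 9244 and 10651 CPM (lowest, median, highest) in KO atrial cells and 4602, 7566 and 11522 CPM in WT atrial cells. Over all 15 libraries the mean was 8439 CPM in atrial cells, 2058 in trabecular cells and 985 in compact cells. Atrial cells thus had 8.56 times the compact mean, and trabecular cells 2.09 times, and both orders held in 15 of 15 libraries. The mitotic atrial cells (6054 CPM) and the Vsnl1/Shox2 cluster (5366 CPM) lay between atrial and trabecular cells. Mitotic atrial cells were above that cluster in 12 of 15 libraries. The gap between their means was smaller than the SD between libraries.

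Myh7 had the reverse order. It had 5354, 6528 and 8762 CPM in KO compact cells and 3832, 6303 and 10439 CPM in WT compact cells. The trabecular mean of 6984 CPM and the compact mean of 6843 CPM did not separate, trabecular cells being higher in 9 of 15 libraries. It had 177, 219 and 330 CPM in KO atrial cells and 195, 329 and 826 CPM in WT atrial cells, below the compact level in 15 of 15 libraries, and the Vsnl1/Shox2 cluster averaged 2382 CPM. Cells were also thinned to 1000 UMIs, and here and below shallower cells are left out of thinned shares. This kept 2882 of 4969 KO and 2626 of 3960 WT compact cells. At least 1 UMI of both heavy chains was found in 46.8% of KO and 49.2% of WT compact cells kept. Among trabecular cells kept, the share was 69.8% in KO and 67.2% in WT cells.

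The regulatory light chains also differed between the chambers. Myl7 had 22562, 25008 and 34892 CPM in KO atrial cells and 20394, 29728 and 38006 CPM in WT atrial cells, and its mean in atrial cells was 10.6 times that in compact cells (27901 and 2623 CPM). Trabecular cells (2376 CPM) were lower than compact cells in 11 of 15 libraries. Which class ranked first depended on the clustering: the Vsnl1/Shox2 cluster, at 22777 CPM here, exceeded the atrial class under 4 of the other settings tried, for example with 29146 against 27047 CPM when the 9 genes were kept in the clustering. Myl2 had 11479, 13053 and 13720 CPM in KO compact cells and 10108, 12454 and 14526 CPM in WT compact cells. Its trabecular mean was 13537 CPM, above the compact mean of 12517 CPM in 14 of 15 libraries, and its atrial mean was 348 CPM.

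The essential light chains differed in how far the chambers were apart. Myl4 averaged 16321 CPM in atrial, 8664 CPM in trabecular and 5410 CPM in compact cells, an order kept in 15 of 15 libraries. A Myl4 UMI was found in 99.9% of KO and 100% of WT atrial cells as deposited. Myl3 averaged 10655 CPM in compact and 9927 CPM in trabecular cells, compact cells being higher in 14 of 15 libraries, and 932 CPM in atrial cells. The atrial mean of Myl4 was 3.02 times its compact mean, a smaller fold difference than that of Myl3 or Myl1. Myl1 had 1771, 2202 and 2637 CPM in KO atrial cells and 1369, 2623 and 2795 CPM in WT atrial cells. The mean of Myl1 in atrial cells was 31.5 times that in compact cells (2291 and 72.8 CPM), and its trabecular mean (368 CPM) was 5.05 times the compact one, in 15 of 15 libraries.

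Trabecular cells, the inner layer of the ventricle, thus had more of 4 chains that were highest in atrial cells than compact cells did: the mean log2 difference of trabecular over compact cells was 1.06 for Myh6, 2.21 for Myl1, 0.67 for Myl4 and 0.31 for Myl9, the last in 14 of 15 libraries. The atrial regulatory chain Myl7 did not follow them, with -0.16. For the ventricular chains this log2 difference was 0.03 for Myh7, 0.11 for Myl2 and -0.10 for Myl3.

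Mitotic ventricular cells had lower levels of the cardiac chains than compact cells. The mean log2 difference of mitotic ventricular over compact cells was -0.35 for Myh7, -0.19 for Myl2, -0.19 for Myl3 and -0.30 for Myl4, each negative in 15 of 15 libraries. It was -0.23 for Myh6 and -0.38 for Myl7, negative in 14 of 15 libraries. Myl1 (-0.05) was lower in 10 of 15. Mitotic atrial cells were lower than atrial cells for Myh6 (mean log2 difference -0.48) and Myl4 (-0.31) in 15 of 15 libraries, and for Myl7 (-0.15), Myl1 (-0.35) and Myl9 (-0.28) in 14 of 15. CPM does not tell less of a chain from more of other RNA.

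**Figure D1:**
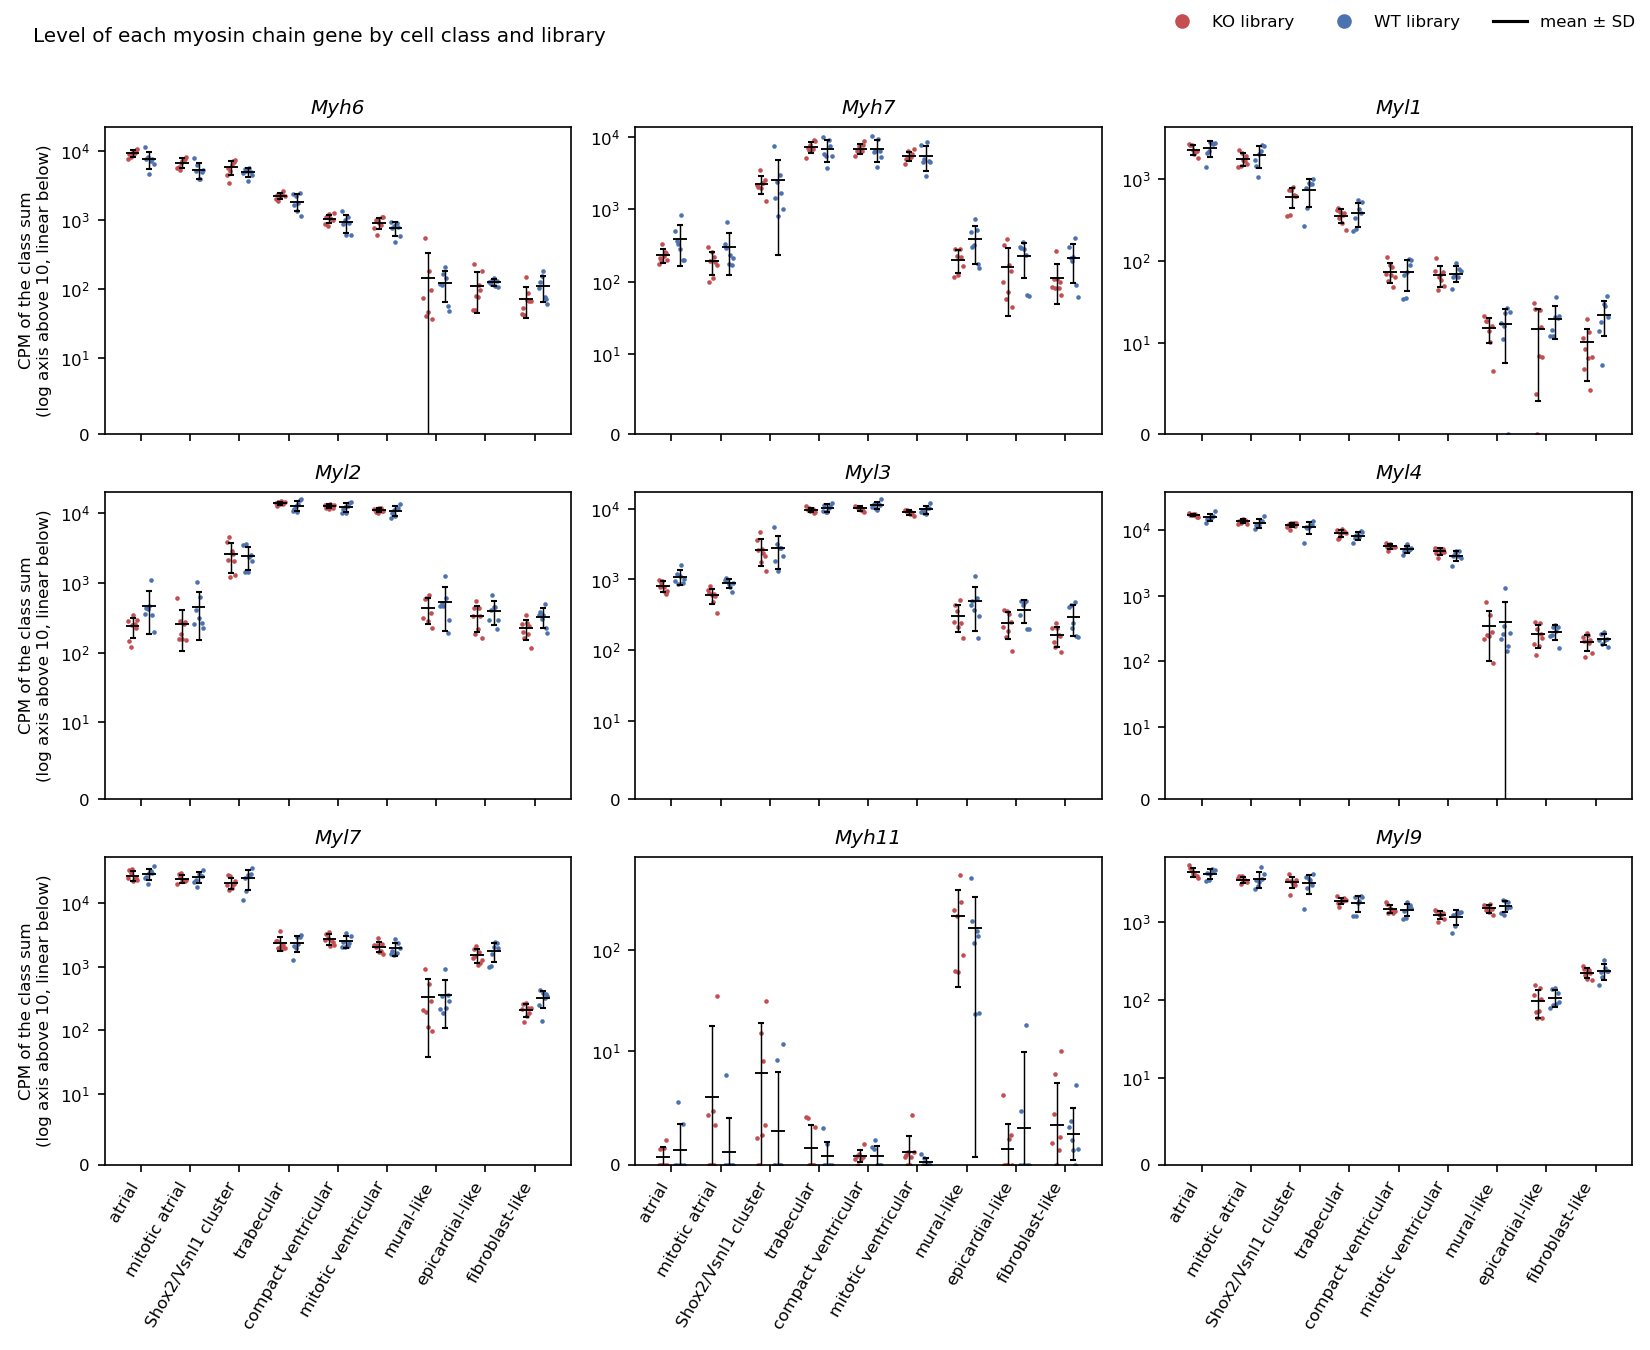
Level of each of the 9 genes (CPM of the class sum; log axis above 10, linear below) by cell class, with 1 point per library, KO libraries in red left of WT libraries in blue, and bars for the mean ± SD. Myh6, Myl1, Myl4 and Myl7 are highest at the atrial end, Myh7, Myl2 and Myl3 in the ventricular classes, and Myh11 averages 189 CPM in mural-like cells and at most 5.71 CPM in any other class.

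The smooth muscle chains differed from each other. Myh11 was concentrated in the 2477 mural-like cells, the class of the smooth muscle and pericytes around vessels. It had 59.7, 215 and 543 CPM in 7 KO libraries and 23.1, 137 and 505 CPM in 7 WT libraries, KO replicate 4 being left out with 3 mural-like cells. The groups overlapped throughout, and no other class averaged over 5.71 CPM. UMIs of Myh11 were found in 12.7% of KO and 14.4% of WT mural-like cells after thinning, and in 17.6% of KO and 19.0% of WT cells before it. Myl9 was not restricted in this way. It averaged 4275 CPM in atrial cells, 1822 in trabecular cells, 1553 in mural-like cells and 1463 in compact cells, against 229 CPM in fibroblast-like and 173 CPM in valve interstitial-like cells. Mural-like and compact cells did not separate, mural-like cells being higher in 9 of 14 libraries.

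Across the 16 classes, some genes had nearly the same pattern of mean log2(CPM + 10) over WT libraries, among 6556 genes. The closest were Nlrp10 for Myh6 (Pearson r = 0.976), Asb11 for Myh7 (0.974) and Myl2 (0.966), Kcnj3 for Myl1 (0.976) and Pln for Myl3 (0.987). They were Cox6a2 for Myl4 (0.994), Kcnj5 for Myl7 (0.930), Acan for Myh11 (0.988) and Ptpla for Myl9 (0.966). The next closest pairs were Cmya5 and Kcnj5 for Myh6, Ddc and Pln for Myh7, Ank1 and Nlrp10 for Myl1, Ddc and Mb for Myl2, and Myh7b and Ddc for Myl3. For Myl4 they were Ankrd1 and Csrp3, for Myl7 Stard10 and Rxfp1, for Myh11 Lmod1 and Clca2, and for Myl9 Cnn1 and Grb14. The 16 points share libraries and classes, and the r values only describe them.

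Free RNA from broken cells gives a bead UMIs of genes its cell does not express, and cardiac chains are among the most abundant RNAs of a heart. The 6 cardiac chains Myh6, Myh7, Myl2, Myl3, Myl4 and Myl7 together made up 4.11% of UMIs in KO and 4.08% in WT cardiomyocyte-like cells. They made up 0.0978% in KO and 0.149% in WT fibroblast-like cells and 0.109% in KO and 0.160% in WT endocardial-like cells, and 2.58% in KO and 2.41% in WT cells of an unnamed cluster led by haemoglobin genes. Among these UMIs, fibroblast-like cells had 7.40% Myh6, 12.1% Myh7, 22.2% Myl2, 17.9% Myl3, 17.9% Myl4 and 22.5% Myl7 (means over 15 libraries). That is close to the make-up of all cardiomyocyte-like cells, with 12.0% Myh7 and 21.1% Myl7, and unlike that of compact cells, with 17.5% Myh7 and 6.75% Myl7, or atrial cells, with 0.562% Myh7 and 51.1% Myl7.

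Epicardial-like cells, the outer lining of the heart, had another make-up. Myl7 took 57.1% of their cardiac chain UMIs (SD 9.91, n = 15). The level of Myl7 was 1085, 1422 and 2119 CPM in KO epicardial-like cells and 992, 1946 and 2466 CPM in WT epicardial-like cells. In fibroblast-like cells it was 135, 220 and 271 CPM in KO libraries and 142, 352 and 432 CPM in WT libraries, so the 2 classes did not overlap in either genotype. After thinning to 1000 UMIs, 63.4% of KO epicardial-like cells (exact 95% interval 59.8 to 66.8) and 69.4% of WT ones (64.8 to 73.7) had a Myl7 UMI. The share was 17.3% in KO (15.9 to 18.8) and 27.0% in WT fibroblast-like cells (25.1 to 28.9). Without thinning it was 69.8% of KO and 81.4% of WT epicardial-like cells at median depths of 1646 UMIs in KO and 2109 UMIs in WT, and 28.6% of KO and 45.8% of WT fibroblast-like cells at 1625 UMIs in KO and 2014 UMIs in WT. Intervals cover counting error only. Myl2 was found in 17.2% of KO and 26.9% of WT thinned epicardial-like cells, against 16.1% of KO and 25.6% of WT fibroblast-like cells, a gap much smaller than that of Myl7. Being a cluster difference, it has no test, and Myl7 is not among the genes that formed the clusters.

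**Figure D2:**
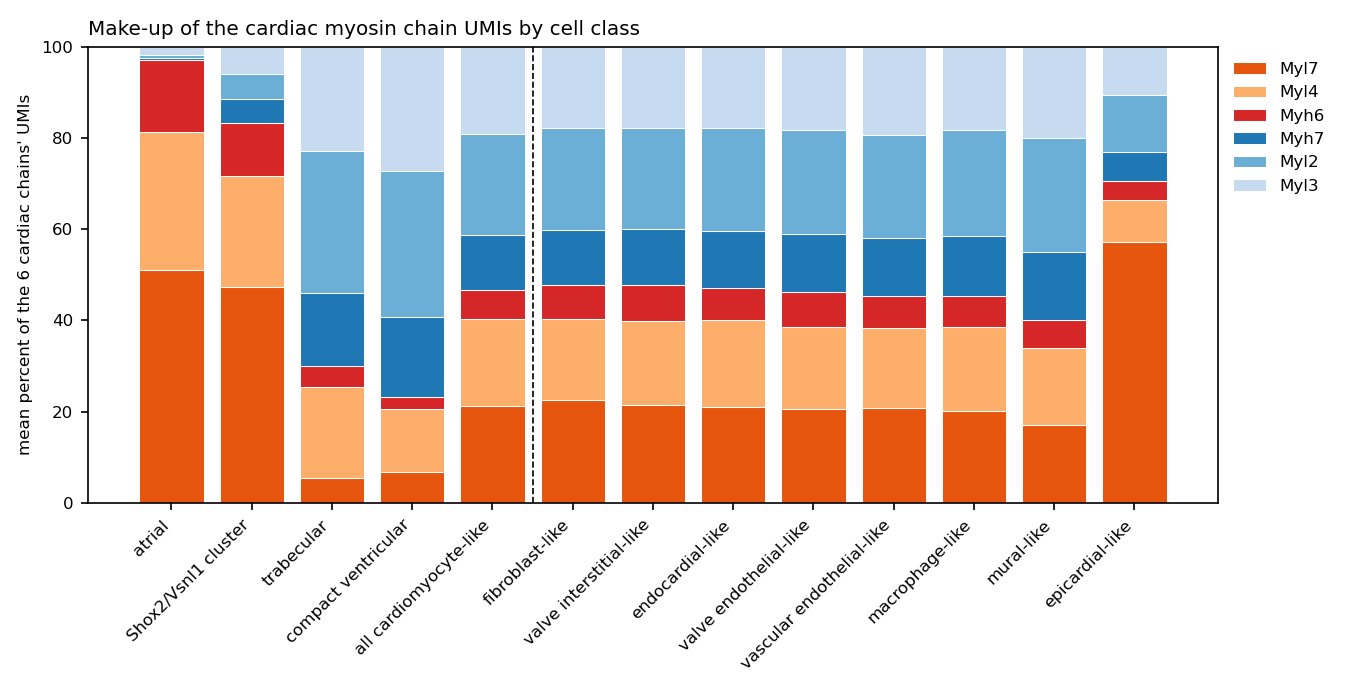
Mean share over libraries of each of 6 cardiac chain genes among their summed UMIs (percent, stacked bars) by cell class, cardiomyocyte-like classes left of the dashed line. Most classes on the right repeat the mix of all cardiomyocyte-like cells, while in epicardial-like cells Myl7 takes 57.1%.

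The ventricular chains in atrial cells were set beside this background. The thinned share of cells with a Myh7 UMI was 18.6% in KO atrial cells (exact 95% interval 16.2 to 21.04) and 24.0% in WT atrial cells (20.9 to 27.4). In macrophage-like cells it was 15.3% in KO (11.9 to 19.2) and 26.6% in WT cells (22.1 to 31.5), and the intervals of atrial and macrophage-like cells overlapped. It was lower in fibroblast-like cells, with 7.76% in KO (6.77 to 8.84) and 18.1% in WT cells (16.5 to 19.8), and in endocardial-like cells, with 10.3% in KO (9.05 to 11.7) and 16.7% in WT cells (14.96 to 18.6), and these intervals lay below those of atrial cells. Thinning left out 533 KO and 321 WT atrial cells as too shallow, and before it the Myh7 shares were 31.2% in KO and 44.6% in WT atrial cells. In macrophage-like cells they were 20.8% in KO and 38.0% in WT cells before thinning, and the median depths were 1634.5 UMIs in KO and 1974 UMIs in WT atrial cells, and 1294.5 UMIs in KO and 1471.5 UMIs in WT macrophage-like cells. Myl2 UMIs occurred in 14.8% of KO (12.7 to 17.1) and 26.6% of WT (23.4 to 30.01) thinned atrial cells, against 16.1% of KO (14.7 to 17.6) and 25.6% of WT fibroblast-like cells (23.7 to 27.5), and the intervals overlapped. By these intervals the Myl2 shares did not separate from those of fibroblast-like cells. In macrophage-like cells the mean Myl2 level was 788 ± 452 CPM, above the atrial mean of 348 ± 229 CPM (SD, n = 15). The Myh7 shares lay above those of fibroblast-like and endocardial-like cells and had intervals overlapping those of macrophage-like cells. These intervals count cells pooled over the libraries of a genotype. They cover counting error only, not the spread between libraries, and do not test whether classes differ. The part of free RNA in these shares was not tested, nor, for Myh7, that of reads from transcript ends shared with Myh6. Myl3 was found more often than in macrophage-like cells, in 40.3% of KO atrial cells (37.4 to 43.4) and 50.5% of WT atrial cells (46.7 to 54.2), against 18.5% of KO and 33.9% of WT macrophage-like cells. Before thinning the Myl3 shares were 50.9% in KO and 65.0% in WT atrial cells, and 27.9% in KO and 48.0% in WT macrophage-like cells.

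The isoform shares put these levels on a scale within each library. The ventricular isoform's percent of the UMIs of its pair was compared between KO and WT for 3 pairs in 4 classes, 12 shares in all, with two-sided exact permutation tests over the 15 libraries and Benjamini-Hochberg adjustment over the 12. Compact cells had 86.8% ± 1.21 Myh7 of Myh7 + Myh6 in KO and 87.9% ± 1.24 in WT libraries (SD, n = 8 and 7, exact p = 0.0884, adjusted p = 0.152). They had 82.3% ± 3.44 Myl2 of Myl2 + Myl7 in KO and 82.9% ± 3.88 in WT libraries (exact permutation p = 0.783, adjusted p = 0.802). The Myl3 share of Myl3 + Myl4 in compact cells was 64.1% ± 2.30 in KO and 68.7% ± 3.89 in WT libraries (exact permutation p = 0.0179, adjusted p = 0.0715). In trabecular cells the shares were 76.0% Myh7, 85.6% Myl2 and 51.8% Myl3 in KO libraries, against 77.9%, 84.5% and 55.4% in WT libraries, with adjusted p of 0.457, 0.646 and 0.145 by the exact permutation test. In mitotic cells they were 69.7% Myh7, 60.1% Myl2 and 54.1% Myl3 in KO libraries, against 73.5%, 61.4% and 60.1% in WT libraries, with adjusted p of 0.457, 0.802 and 0.145 by the same test. The mitotic class joins ventricular and atrial clusters, in which Myl7 took 6.15% and 54.6% of the cardiac chain UMIs, and its shares depend on that mix (584 of 3551 KO and 332 of 2421 WT cells were atrial).

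**Figure D3:**
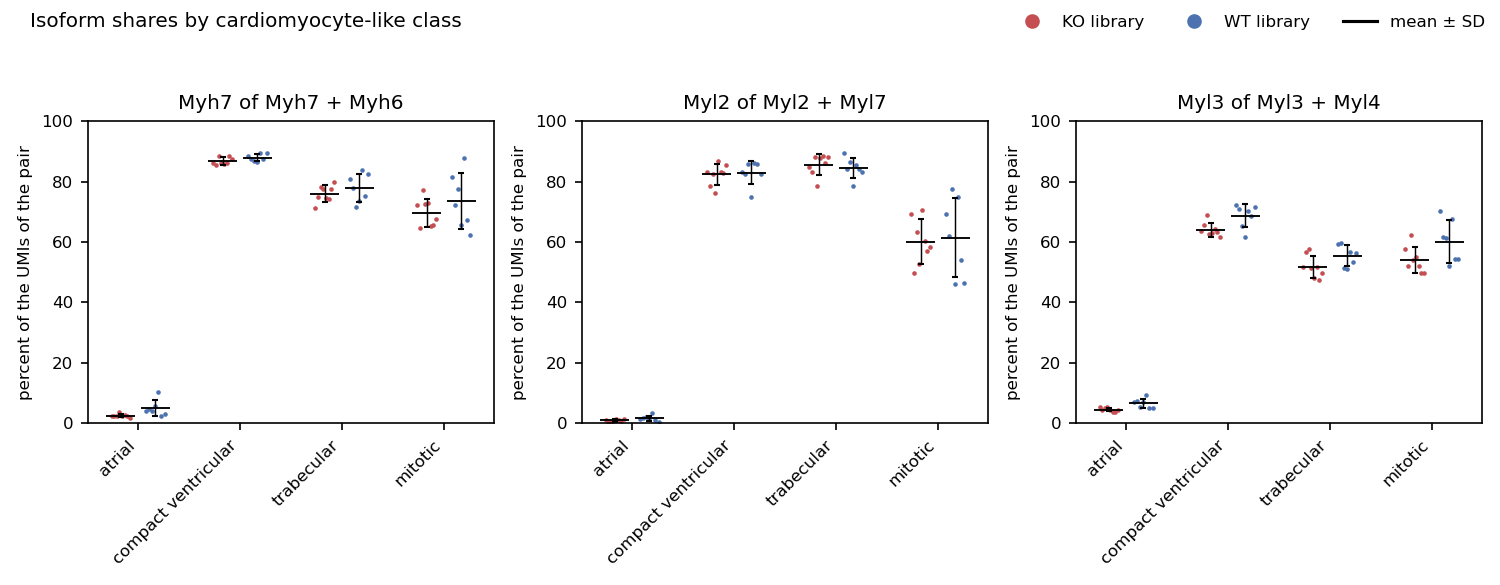
Share of the ventricular isoform in the UMIs of each pair (percent, 0 to 100) by cardiomyocyte-like class, with 1 point per library, KO in red left of WT in blue, and bars for the mean ± SD. Atrial cells lie near 0 and compact and trabecular cells near 52% to 88%, and the KO and WT points overlap in the ventricular classes.

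In atrial cells 2 of the 3 shares were lower in KO libraries. Myh7 took 1.81%, 2.31% and 3.64% (lowest, median, highest) of Myh7 + Myh6 in KO atrial cells, against 2.52%, 4.16% and 10.3% in WT atrial cells. The mean difference was -2.45 percentage points (exact permutation p = 0.00202, adjusted p = 0.0121). The groups overlapped, and the highest value, 10.3%, belonged to WT replicate 5, the WT library on the KO flow cell. Without that library the difference was -1.54 points. Myl3 took 3.70%, 4.35% and 5.23% of Myl3 + Myl4 in KO atrial cells, against 4.99%, 6.87% and 9.20% in WT atrial cells, a difference of -2.09 points (exact permutation p = 0.00155, adjusted p = 0.0121). The Myl2 share of Myl2 + Myl7 was 0.924% ± 0.397 in KO and 1.65% ± 0.873 in WT libraries (exact permutation p = 0.0373, adjusted p = 0.112). Both calls held without each of the 15 libraries in turn. Neither held with the tm4a or the tm4b libraries alone, without WT replicates 1 to 4, or with 1 value per litter, where 7 litters allow no exact p under 0.0286, although the differences stayed between -1.62 and -3.16 points. Beside these differences, the pooled share of atrial cells with a Myh7 UMI lay above that of fibroblast-like cells. Its interval overlapped that of macrophage-like cells, and these intervals cover counting error only. The cardiac chain share of fibroblast-like cells was 0.0978% in KO and 0.149% in WT libraries. The part of free RNA in the 2 share differences was not tested, nor, for Myh7, that of reads from transcript ends shared with Myh6.

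**Figure D4:**
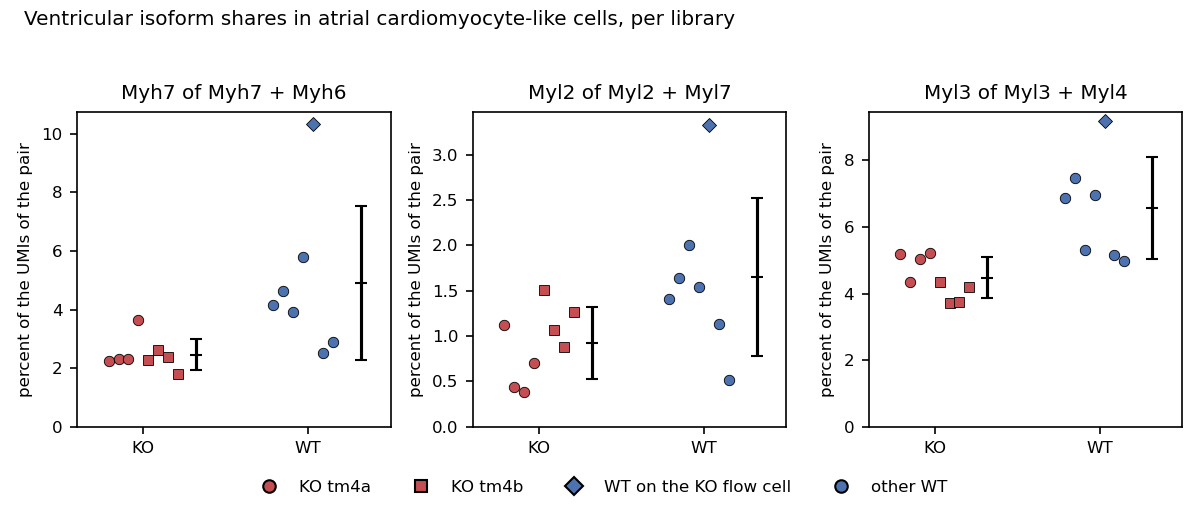
Ventricular isoform shares in atrial cardiomyocyte-like cells (percent of the UMIs of the pair), 1 point per library, KO left of WT, with the KO alleles and the WT library on the KO flow cell marked and bars for the mean ± SD. KO libraries lie between 1.81% and 3.64% for Myh7 and WT libraries between 2.52% and 10.3%, and the groups overlap.

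The difference between atrial and compact cells in log2(CPM + 10) was also compared between genotypes, gene by gene. It was lower in KO than in WT libraries by 0.65 for Myh7 (values of -4.86 ± 0.28 in KO and -4.20 ± 0.52 in WT libraries, exact permutation p = 0.00668) and by 0.92 for Myl2 (-5.74 ± 0.48 in KO and -4.83 ± 0.79 in WT libraries, exact permutation p = 0.0134). For Myl3 the KO minus WT difference was -0.28 (exact permutation p = 0.0483). Over the 5466 genes tested in the same way 0% were called at an adjusted p under 0.05, and the adjusted p values were 0.675 for Myh7, 0.754 for Myl2 and 0.889 for Myl3. Unadjusted, 304 of the 5466 genes had an exact p under 0.05. The chamber contrast of the other chains changed by -0.20 (Myl7) to 0.09 (Myh6).

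Changes between KO and WT across all genes were tested on UMIs summed per library with edgeR's quasi-likelihood test, and a call means a Benjamini-Hochberg adjusted p under 0.05 over all genes tested. In a whole class, fewer cells of a kind and less RNA per cell cannot be told apart. In all cells together 0 of 9 members were called, where 0.208% of 13445 genes were. Myh6 had 1565 ± 280 CPM in KO and 1254 ± 203 CPM in WT libraries, with a log2 fold change of 0.29 (SE 0.13, edgeR adjusted p = 0.273). In cardiomyocyte-like cells 0 of 8 were called against 1.46% of genes, Myh6 having a log2 fold change of 0.35 (SE 0.14, edgeR adjusted p = 0.202). Myh11 was too rare to be tested in any cardiomyocyte-like class.

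Within the subclasses no member was called. The count was 0 of 8 in atrial cells, where 0.4% of genes were called, 0 of 8 in compact cells (0.493%), 0 of 8 in trabecular cells (0.0217%) and 0 of 8 in mitotic cells (0.31%). At an unadjusted p under 0.05 edgeR gave 4 of 8 members in atrial cells, where it gave 638 of 5503 genes, 0 in compact cells (1261 of 8928 genes), 0 in trabecular cells (356 of 4610) and 1 in mitotic cells (1158 of 8719). No member was called by DESeq2 in these classes. In atrial cells the log2 fold changes were -0.96 for Myl2 (SE 0.25, edgeR adjusted p = 0.0912), -0.71 for Myh7 (SE 0.22, adjusted p = 0.169), -0.44 for Myl3 (SE 0.15, adjusted p = 0.216) and 0.28 for Myh6 (SE 0.13, adjusted p = 0.422). The level of Myl2 there was 118, 253 and 347 CPM in KO libraries and 197, 417 and 1090 CPM in WT libraries, with WT replicate 5 again highest. Myl2 was called in 6 of 29 other settings, among them flow cell as a covariate, which rests on WT replicate 5, at a log2 fold change of -2.21 (edgeR adjusted p = 0.000323). The median log2 fold change of the 8 members tested was -0.08 in atrial cells, 0.01 in compact cells, 0.08 in trabecular cells and -0.04 in mitotic cells, against -0.02, -0.03, -0.01 and -0.02 for all genes in those classes.

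In compact cells none of the chains passed the test, and the log2 fold changes were small. The log2 fold changes were 0.00 for Myh7 (SE 0.15), 0.01 for Myl2 (SE 0.12), -0.19 for Myl3 (SE 0.12) and 0.17 for Myh6 (SE 0.14), with edgeR adjusted p values of 0.998, 0.980, 0.484 and 0.599. Shares of the subclasses among cardiomyocyte-like cells, on which summed levels depend, were compared with the exact permutation test and adjusted over 5 subclasses. Trabecular cells were 7.16% ± 2.40 of cardiomyocyte-like cells in KO and 11.5% ± 3.73 in WT libraries (exact p = 0.0196, adjusted p = 0.0979). Atrial cells were 12.9% in KO and 11.2% in WT, compact cells 40.8% in KO and 42.6% in WT, mitotic cells 29.1% in KO and 26.5% in WT, and the Vsnl1/Shox2 cluster 9.95% in KO and 8.25% in WT libraries, with adjusted p values of 0.434, 0.434, 0.205 and 0.205 by the exact permutation test.

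Mural-like cells gave 0 of 8 members called, where 0% of 5201 genes were called, and edgeR gave an unadjusted p under 0.05 for 2 members, Myh7 and Myl3, and for 520 of the 5201 genes. Myh11 had a log2 fold change of 0.27 there (SE 0.46, edgeR adjusted p = 0.895) and Myl9 of -0.12 (SE 0.15, adjusted p = 0.814).

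In 3 of the 4 classes fitted outside heart muscle the cardiac chains had negative log2 fold changes, and 1 of them passed the test in 1 class. In valve interstitial-like cells 1 of 7 members was called, Myh7, where 0.221% of genes were called. Its level was 68.4, 97.6 and 194 CPM in KO libraries and 97.8, 249 and 371 CPM in WT libraries, with overlapping groups and a log2 fold change of -1.23 (SE 0.24, edgeR adjusted p = 0.0231). The call was lost without KO replicate 5, 7 or 8 or WT replicate 2 or 5, with adjusted p values of 0.0522 to 0.0766 and log2 fold changes of -1.09 to -1.17. It was also lost with the replicate block (edgeR adjusted p = 0.0827), with flow cell as a covariate (0.123), summed per litter (0.356), with the tm4a libraries alone (0.349), without WT replicates 1 to 4 (0.0515) and with the 9 genes kept in the clustering (0.0770). In fibroblast-like cells 0 of 8 members were called, against 0.0443% of genes, and in endocardial-like cells 0 of 8, against 0.227%. All members tested had negative log2 fold changes in these 3 classes, with medians of -0.60 in valve interstitial-like, -0.64 in fibroblast-like and -0.60 in endocardial-like cells. Over all genes the medians were -0.03, -0.03 and -0.01. The unadjusted edgeR p was under 0.05 for 5 of 7, 6 of 8 and 6 of 8 members, against 1097 of 8137, 1300 of 9029 and 1090 of 8388 genes.

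The share of the 6 cardiac chains in the UMIs of these classes includes Myh7 itself, so it is not independent of that call. It was 0.0620%, 0.101% and 0.168% in KO valve interstitial-like cells and 0.107%, 0.155% and 0.211% in WT ones, and the groups overlapped. Of these UMIs Myh7 made up 10.3% ± 1.44 in KO and 14.6% ± 3.71 in WT valve interstitial-like cells (SD). In cardiomyocyte-like cells Myh7 made up 11.6% ± 1.63 in KO and 12.5% ± 5.58 in WT libraries. The KO mean of the summed share was lower than the WT mean in 7 of 10 classes outside heart muscle. In mural-like cells this rested on WT replicate 4, without which the KO minus WT difference was 0.00234 percentage points. In valve endothelial-like cells the difference was -0.0777 points, and -0.0455 without WT replicate 1. The KO mean was higher in the unnamed haemoglobin cluster. Macrophage-like cells had no stable direction, with a mean of 0.354% and a median of 0.238% in KO and a mean of 0.333% and a median of 0.335% in WT libraries, and the mean difference turned without KO replicate 3 or 4 or WT replicate 4 or 6 (-0.0344 points at the lowest). In erythroid-like cells, with 4 KO and 5 WT libraries, it turned without KO replicate 4 (-0.0231 points). These summed shares are a description with no test, and the part of free cardiomyocyte RNA in the Myh7 call was not tested.

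**Figure D5:**
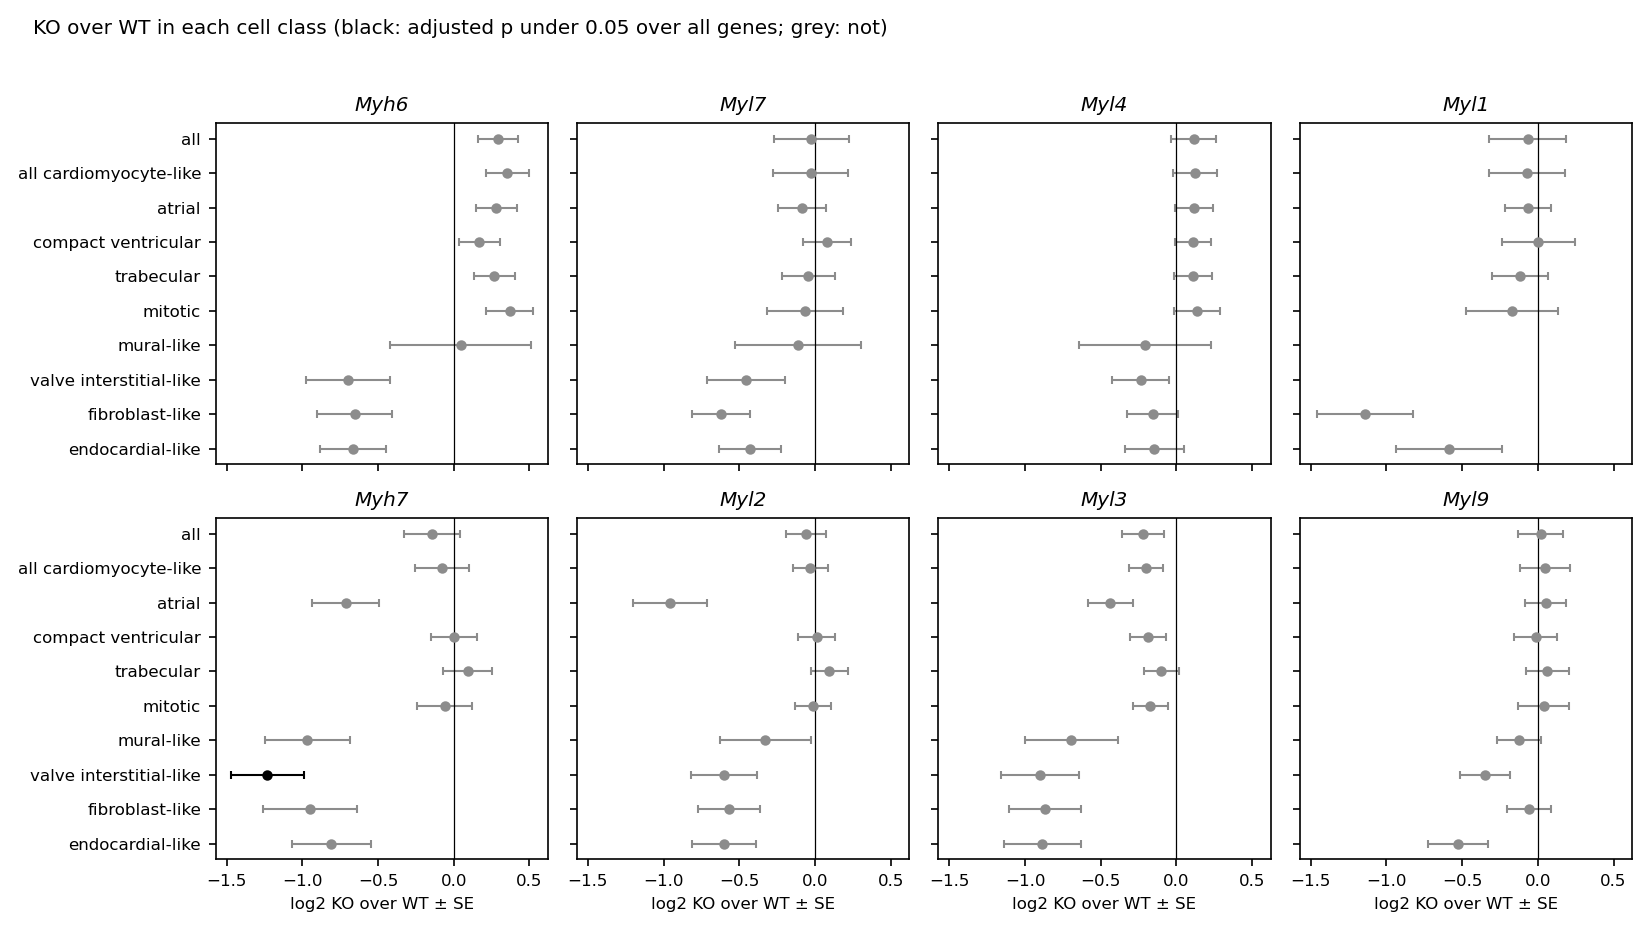
Log2 fold change of KO over WT (points, with SE bars) of 8 of the 9 genes (Myh11 is not drawn) in each cell class, black where the edgeR adjusted p over all genes was under 0.05 and grey otherwise. Only Myh7 in valve interstitial-like cells, at -1.23, is black, and the cardiac chains lie left of 0 in valve interstitial-like, fibroblast-like and endocardial-like cells, while in mural-like cells Myh6 lies at 0.05.

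Of 29 other myosin genes and regulators of myosin in the table, 24 were tested in all cells and 0 were called. Over all genes, 0.208% were called in all cells, 0.4% in atrial cells and 0.221% in valve interstitial-like cells. Lmod2, which promotes the growth of actin filaments, was called in atrial cells as the only gene of 16 tested (log2 fold change 1.10, SE 0.18, edgeR adjusted p = 0.00266). Mybpc3, the cardiac myosin binding protein C, was called in valve interstitial-like cells as the only gene of 14 tested (-1.33, SE 0.26, edgeR adjusted p = 0.0231), and it is also a marker of heart muscle cells. The Lmod2 call was lost with the tm4a libraries alone (0.63, edgeR adjusted p = 0.298) and with flow cell as a covariate (1.45, edgeR adjusted p = 0.389). The Mybpc3 call was lost without the same libraries as that of Myh7, namely KO replicate 5, 7 or 8 or WT replicate 2 or 5, with edgeR adjusted p values of 0.0506 to 0.0701. In the other 8 fits the count was 0 of 13 to 24 tested, with edgeR giving an unadjusted p under 0.05 for 2 to 6 of them. For example, it did so for 2 of 15 in trabecular cells, where it gave 356 of 4610 genes. In fibroblast-like cells it did so for 6 of 15, where it gave 1300 of 9029 genes. The list's median log2 fold change lay between -0.16 and 0.07 over the 10 fits, and that of all genes between -0.03 and -0.01.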

How the data were processed

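The authors' deposited table holds UMI counts per gene and barcode for 15 libraries, as whole numbers without scaling. The submitters' processing notes name mm10, Seurat 2.1 and bcl2fastq 2.17, while the sources used here do not give the aligner or counter. Columns of no sample numbered 0. From these counts, barcodes with at least 300 genes were kept. Scrublet (in scanpy 1.11.5) marked 128 cells (0.251%), too few to have worked in 14 of 15 libraries, so doublets are largely unrecognised. Cells were clustered (Leiden, resolution 1) without the 9 genes and named by at least 3 markers over 1.5 fold, a fold lowered after the clusters were seen, and classes entered a library with at least 10 cells. UMIs summed per library and class were tested with edgeR 4.0.16 (TMM, filterByExpr, quasi-likelihood test, 2-sided), with DESeq2 1.42.0 as an alternative. The edgeR method was also run on simulated counts of 11258 genes, of which 200 were changed 2-fold. It recovered 99.5% of these, and 6.57% of its calls were false. The simulated libraries had no litter or flow cell differences, unlike these data. Shares used two-sided exact permutation tests in scipy 1.17.1, of which 6435 splits are possible (smallest p 0.0001554). P-values adjusted over the 9 genes alone and a test of their summed share had been planned and are not reported, since the genes and lists were chosen with earlier results of these data known. Genes named are the 9, those of a list of myosin genes that passed, and the 3 most alike by pattern. The description of WT replicate 4 carries the number 3, and its title was used. Same-numbered KO and WT libraries deviated together with correlations of -0.281 to 0.133, so the numbers pair nothing. Alternatives varied the low-count filter, normalization, replicate block, flow cell, litter, allele, libraries, clustering, doublets and cell filter.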

Additional observations from a re-analysis of the deposited data

Results flagged for a closer look

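In 13 of 124 groups of libraries (10.5%) the highest or lowest value stood apart from the rest of its group by Dixon's criterion, which chance does in about 1 of 20 groups. No cause was tested.

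KO replicate 4 stood high in 4 of them. Its Myl7 level in trabecular cells was 3638 CPM, with the next KO library at 2582 CPM, and its Myh7 share of Myh7 + Myh6 in atrial cells was 3.64%, with the next at 2.62%. The 6 cardiac chains made up 0.154% of its UMIs in fibroblast-like cells (next 0.106%) and 0.490% in vascular endothelial-like cells (next 0.191%). In KO replicate 3 the Myl4 level of mitotic cells was low at 4996 CPM, with the next KO library at 6139 CPM.

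WT replicate 5, which shares the flow cell of the KO libraries, stood high in atrial cells in 3 groups. It had 1090 CPM of Myl2 (next WT library 464 CPM), 1604 CPM of Myl3 (next 1178 CPM) and a Myh7 share of 10.3% (next 5.78%). WT replicate 4 had a low Myl2 share of Myl2 + Myl7 in compact cells, 74.9% (next 82.4%), and a high cardiac chain share in its mural-like cells, 0.553% (next 0.219%). WT replicate 1 had 505 CPM of Myh11 in mural-like cells (next 190 CPM) and a cardiac chain share of 0.368% in valve endothelial-like cells (next 0.195%). In WT replicate 7 the cardiac chain share of erythroid-like cells was 1.04% (next 0.395%).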

How the results depend on the processing

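The number of members called by edgeR was 0 in every setting run in all cells and in cardiomyocyte-like, compact, trabecular and mitotic cells. In atrial cells it was 2 without the low-count filter, where 72 genes were called in all. It was also 2 with flow cell as a covariate, a fit that rests on WT replicate 5 and called 2 genes in all, Myh7 and Myl2. It was 1 without WT replicates 1 to 4, 1 without the 5% highest doublet scores and 1 at 500 genes per cell. Without a single library it was 0 to 1 (1 without WT replicate 7), where 11 to 40 genes were called in all. Mural-like and endocardial-like cells each gave 1 without the 5% highest doublet scores. Fibroblast-like cells gave 2 without WT replicates 1 to 4. They gave 0 to 2 without a single library (2 without WT replicate 3), where 1 to 103 genes were called in all. In valve interstitial-like cells the count was 0 with the replicate block (Myh7 adjusted p = 0.0827 by edgeR), with flow cell, per litter, with tm4a alone, without WT replicates 1 to 4, with the 9 genes kept in the clustering, and 0 to 1 without a single library. The block changed no other member's call. Of the 12 isoform shares 2 were called here, 4 at 500 genes per cell, and 0 with tm4a alone, tm4b alone, without WT replicates 1 to 4 or with 1 value per litter. Among subclass shares 0 were called, and 0 to 1 without a single library (1, trabecular, without WT replicate 7). For the chamber contrast 3 of the 9 genes had an exact permutation p under 0.05, 1 with tm4a alone, 1 without WT replicates 1 to 4 and 0 per litter, where 35 splits allow no p under 0.0286. No result changed direction while called. Counts over all genes varied more. Over the settings that keep all libraries or change several at once they ran from 2 to 975 in all cells (28 here), 2 to 904 in cardiomyocyte-like (164), 2 to 137 in atrial (22), 0 to 525 in compact (44), 0 to 74 in trabecular (1), 0 to 485 in mitotic (27), 0 to 22 in mural-like (0), 2 to 360 in valve interstitial-like (18), 0 to 242 in fibroblast-like (4) and 0 to 538 in endocardial-like cells (19). Myh11 and Myl1 did not pass the low-count filter in some classes outside their main ones and were not tested there. The causes of these changes were not tested.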
